A study of Mus musculus with 6 samples.

Results

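The genes described here are 10 regulators of Rac signalling and of the actin skeleton: Rac1, Rac2, Rhoh, Vav1, Dock2, Coro1a, Arhgdib, Was, Lcp1 and Hcls1. They were taken by symbol, as probe sets that the platform annotation assigns to 1 gene only, and all 10 were found, each with 1 such probe set, among 19937 genes in all. No filter on level was applied, so none was lost. They were measured in cells sorted from CD1 mouse embryos at E11.5 (embryonic day), from the AGM (aorta, gonad and mesonephros), the region where the earliest definitive haematopoietic stem cells arise and where primordial germ cells settle. All sorted cells carried CD31, an adhesion molecule of endothelium, germ cells and early blood cells, and lacked the leukocyte antigen CD45 and the red cell antigen Ter119. Surface c-kit, which binds stem cell factor, then split them into c-kit-positive cells (3 arrays) and c-kit-negative cells (3 arrays), which shared strain, age and tissue and differed in no stated treatment. The labels call the replicates biological without saying how embryos were pooled, so a p-value here weighs only the spread seen among the 6 arrays, which may be technical.

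Rac proteins are small GTPases that, when loaded with GTP, drive the growth of branched actin at the cell edge and so govern adhesion, migration and shape. Exchange factors such as Vav1 and Dock2 load them, GDI proteins hold them inactive in the cytosol, and WASP and WAVE proteins pass the signal to the Arp2/3 complex, which nucleates actin branches. Rac1 is made in almost every tissue, whereas the other 9 genes are known mainly from blood cells. Both Rac1 and Rac2 act in blood stem cells, where Rac proteins govern adhesion and lodging in the niche.

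Values are log2 microarray levels made with RMA, on which a difference of 1 is a 2-fold change, and each difference is c-kit-positive minus c-kit-negative. Array medians lay between 5.42 and 5.52 and all values between 1.22 and 13.7. Across genes, arrays correlated at 0.976 to 0.981 within a population and at 0.946 to 0.953 between populations. The sort was visible in Kit, at 9.59, 9.54 and 9.53 in c-kit-positive cells, against 8.27, 8.21 and 8.19 in c-kit-negative cells, which checks the labels only. Pecam1, which encodes CD31, averaged 9.13 ± 0.16 in c-kit-positive cells, against 10.02 ± 0.02 in c-kit-negative cells (mean ± SD, n = 3 each), both far above the array medians. All 16 pan-endothelial markers were lower in c-kit-positive cells and 12 of 14 primordial germ cell markers were higher, not counting Kit, the antigen of the sort. In sorted bulk RNA, fewer cells of a type and less RNA per cell cannot be told apart.

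The 10 genes did not move together. In c-kit-positive cells Rac2 and Dock2 rose, by 1.70-fold and 1.87-fold, and 0 of the 10 fell, where a call is an adjusted p under 0.05 (limma, Benjamini-Hochberg over all genes). Among all genes tested, 2.71% were called higher, 4.70% lower and 7.41% in either direction; with only 10 genes, 2 calls are too few to set a share against these. At an unadjusted p under 0.05 the counts were 3 higher and 3 lower, where 11.4% of all genes were higher and 9.69% lower. The same 6 genes had groups that did not overlap, against 26.8% of all genes: Rac2, Dock2 and Was were above, and Rac1, Lcp1 and Hcls1 below, on every c-kit-positive array (16.2% and 10.6% of all genes did so in those directions). The median difference of the 10 was -0.05, beside 0.07 for all genes. With 1 array left out, the count of 2 rises stayed at 2 without c-kit-positive replicate 3 and was 1 without any other array.

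**Figure D1:**
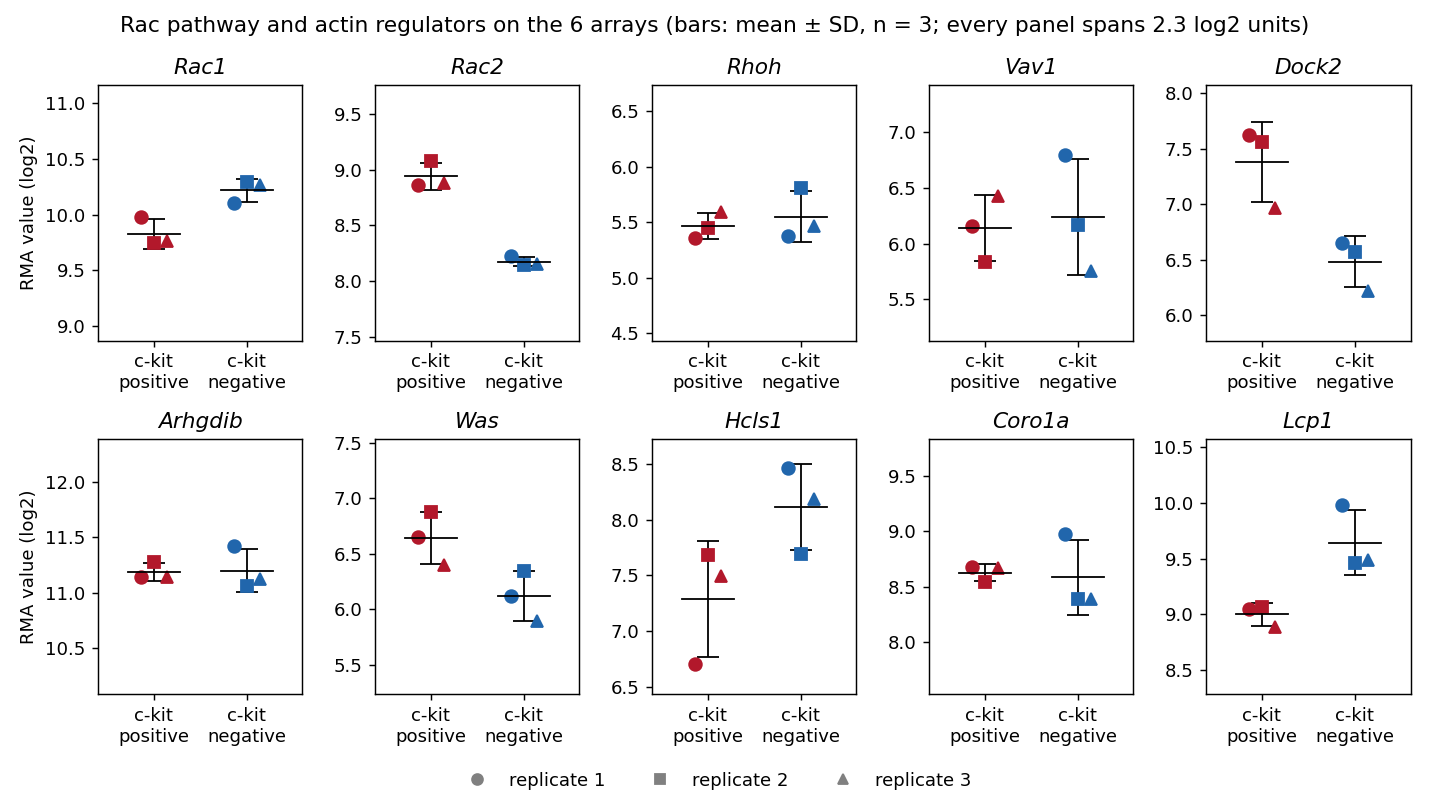
Level of each of the 10 genes on the 6 arrays (vertical axis, RMA value on the log2 scale; each panel spans the same height). Points are arrays, with a shape for each replicate number, and bars are mean ± SD (n = 3 each); Rac2 and Dock2 lie higher on all 3 c-kit-positive arrays, Lcp1 and Hcls1 lower, and Coro1a and Arhgdib overlap.

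Of the GTPases, Rac2, the form of blood cells, showed the tightest separation. Its levels were 8.86, 9.08 and 8.88 in c-kit-positive cells and 8.23, 8.14 and 8.16 in c-kit-negative cells. The lowest c-kit-positive array thus stood above the highest c-kit-negative one by more than the range within either population. The difference was 0.77 ± 0.13 (SE, adjusted p = 0.0106, limma), and it passed without each array in turn, with adjusted p from 0.0278 to 0.0398 (limma). Rac1, its ubiquitous relative, ran the other way, at 9.98, 9.74 and 9.76 against 10.10, 10.29 and 10.26. The populations did not overlap, yet the nearest arrays were close and the difference of -0.39 ± 0.14 (SE, 1.31-fold lower) did not pass (adjusted p = 0.146, limma). Rhoh, an atypical GTPase of blood cells that lacks GTP-hydrolysing activity and opposes Rac, had 5.36, 5.44 and 5.59 against 5.37, 5.81 and 5.47. Here the arrays were intermixed, with a difference of -0.08 and a 95% confidence interval from -0.45 to 0.28. These levels lie near the array medians, and the table carries no detection calls, so Rhoh is not called expressed or absent.

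The exchange factors divided. Dock2, which activates Rac in migrating leukocytes, had 7.62, 7.56 and 6.97 in c-kit-positive cells and 6.65, 6.57 and 6.22 in c-kit-negative cells. All c-kit-positive arrays were higher, with the third replicate the lowest of its population on both sides. The difference was 0.90 ± 0.21 (SE, adjusted p = 0.0372, limma), the largest among the 10 genes in size. The call was lost without c-kit-positive replicates 1 or 2 or any single c-kit-negative array (adjusted p up to 0.117, limma), while the difference stayed between 0.77 and 1.11. Vav1, which loads Rac downstream of antigen and cytokine receptors, had 6.16, 5.83 and 6.43 against 6.80, 6.16 and 5.76. The c-kit-negative arrays spanned the whole range of the c-kit-positive ones, and the difference of -0.10 had a 95% interval from -0.72 to 0.52, which holds the value seen in Rac1. Arhgdib, the GDI protein of blood cells that keeps Rac in the cytosol, had 11.14, 11.28 and 11.14 against 11.42, 11.06 and 11.12. The difference was -0.01, with a 95% interval from -0.35 to 0.32, so a difference the size of that in Rac2 lay outside it.

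Of the genes that act on branched actin, Was encodes WASP, the blood cell activator of Arp2/3 that is lost in Wiskott-Aldrich syndrome. It had 6.65, 6.87 and 6.40 in c-kit-positive cells and 6.12, 6.35 and 5.90 in c-kit-negative cells. The groups came within a small step of each other, and the difference of 0.52 ± 0.18 (SE, 1.43-fold higher) did not pass (adjusted p = 0.134, limma). Hcls1 encodes HS1, the blood cell counterpart of cortactin, which holds branched actin in place. It had 6.70, 7.68 and 7.49 against 8.46, 7.70 and 8.19. Its c-kit-positive replicate 2 and c-kit-negative replicate 2 almost met, and the difference of -0.82 ± 0.29 (SE, 1.77-fold lower) did not pass (adjusted p = 0.139, limma). Without c-kit-positive replicate 1, the lowest array, it was -0.53, and without c-kit-negative replicate 2 it was -1.03.

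Coro1a encodes the leukocyte coronin, which binds actin filaments and is needed for the survival and migration of T cells. Its levels were 8.67, 8.54 and 8.66 in c-kit-positive cells and 8.98, 8.39 and 8.39 in c-kit-negative cells. One c-kit-negative array stood above and the others below all c-kit-positive arrays, with a difference of 0.04 and a 95% interval from -0.38 to 0.46. Lcp1 encodes L-plastin, which bundles actin filaments in leukocytes. Its levels were 9.05, 9.07 and 8.88 against 9.98, 9.46 and 9.49. The groups were apart on every array, and the difference of -0.64 ± 0.17 (SE, 1.56-fold lower) just missed the threshold (adjusted p = 0.0638, limma). It passed only with an intensity trend and a robust prior (adjusted p = 0.0421, limma), and over all alternatives the adjusted p ran from 0.0421 to 0.165.

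Sequences around the start site (250 bases before to 50 after) were held by the RefSeq promoter table (GRCm38.p6) for 8 of the 10 genes, in 12 windows; Rac1 and Rac2 were not in it. Shown are Dock2 and Was, with the larger positive differences among the 8, and Hcls1, with the largest negative one, since these members moved apart. Capitals mark GAGGAA, the core letters of sites for PU.1, an ETS factor of blood cells, and TGTGGT, those of RUNX sites, each searched on both strands (as TTCCTC and ACCACA in reverse) and not overlapping here.
Dock2 (chr11:34783856-34784155, minus strand): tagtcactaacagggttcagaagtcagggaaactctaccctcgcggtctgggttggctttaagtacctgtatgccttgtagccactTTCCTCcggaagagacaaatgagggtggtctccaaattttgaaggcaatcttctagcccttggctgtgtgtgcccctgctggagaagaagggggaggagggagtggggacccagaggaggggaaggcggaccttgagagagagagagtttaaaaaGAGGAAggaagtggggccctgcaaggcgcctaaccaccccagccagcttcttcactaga
Was (chrX:8090442-8090741, minus strand): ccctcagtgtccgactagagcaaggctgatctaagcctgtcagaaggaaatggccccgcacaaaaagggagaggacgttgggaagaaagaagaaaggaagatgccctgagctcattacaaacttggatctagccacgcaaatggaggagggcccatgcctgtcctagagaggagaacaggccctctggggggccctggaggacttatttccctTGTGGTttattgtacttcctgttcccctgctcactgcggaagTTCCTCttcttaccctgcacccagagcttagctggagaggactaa
Hcls1 (chr16:36934733-36935032, plus strand): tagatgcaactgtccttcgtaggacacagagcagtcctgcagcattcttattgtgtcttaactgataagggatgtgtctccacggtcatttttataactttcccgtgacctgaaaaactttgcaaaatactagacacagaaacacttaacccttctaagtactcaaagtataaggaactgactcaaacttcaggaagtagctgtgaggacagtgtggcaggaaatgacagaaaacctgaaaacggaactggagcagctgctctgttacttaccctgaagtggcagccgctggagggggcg
The Dock2 window held GAGGAA at 2 places, the Was window held GAGGAA and TGTGGT once each, and the Hcls1 window held neither. Of the 12 windows, 4 held GAGGAA (1 each of Arhgdib, Dock2, Vav1 and Was) and 2 held TGTGGT (Arhgdib and Was). Across 32851 windows of the same length, 28.3% held GAGGAA and 16.8% held TGTGGT, so the shares in these genes were near those of all windows. The motif AGATAA, bound by erythroid zinc finger factors, was searched on both strands too and was found in 1 of the 12 windows, of Arhgdib, and in 11.2% of all windows. Arhgdib and Vav1, which held GAGGAA too, had overlapping populations. Letter matches describe the sequence and are not binding sites.

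Most of the 10 genes have relatives made in tissues other than blood, and these gave 13 pairs on the arrays. For each pair the member's difference minus the relative's was tested with an exact two-sided permutation test over 3 against 3 arrays, which cannot go below p = 0.1. In 11 of 13 pairs the value was positive, that is, the blood cell gene was higher in c-kit-positive cells relative to its relative. Pairs that share a member are not independent, and no share over other gene pairs was computed, so these counts show no pattern of blood cell genes. In 5 pairs the groups did not overlap, each with exact p = 0.1 (0.26 adjusted over the 13 pairs, permutation test). The 4 of these with a positive value were all pairs of Rac2 or Dock2, the genes called above. Dock2 stood 1.54 above Dock1, the widely made DOCK protein, which itself fell by 0.64 ± 0.13 (SE, adjusted p = 0.0219, limma; not past the threshold with any single array left out). Rac2 stood 1.16 above Rac1 and 0.43 above Rac3, and Dock2 stood 1.07 above Dock5. These are shifts of 1 gene's difference against another's, in log2 units, and not levels set side by side.

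The negative shifts were those of Lcp1 against Pls1 and, near 0, of Vav1 against Vav2. Lcp1 was shifted by -1.40 against Pls1, the plastin of epithelia, which rose by 1.69-fold (6.44 ± 0.18 against 5.68 ± 0.22, SD, n = 3 each; adjusted p = 0.0297, limma). That call was kept only without c-kit-negative replicate 3. Against Pls3, the plastin of many solid tissues, Lcp1 was shifted by 0.58, and the arrays overlapped. Pls3 itself fell by 1.22 on the log2 scale (2.33-fold lower, adjusted p = 0.0132, limma). Likewise Cttn, or cortactin, the relative of Hcls1, fell by 1.13 ± 0.22 (SE, adjusted p = 0.0191, limma), so Hcls1 and Cttn were both lower and their shift of 0.31 overlapped. The call for Cttn was lost without c-kit-positive replicates 2 or 3 and without c-kit-negative replicates 1 or 2. The remaining shifts were 0.43 for Was against Wasl, 0.15 for Rhoh against Rhoa, -0.01 and 0.60 for Vav1 against Vav2 and Vav3, and 0.34 and 0.08 for Coro1a against Coro1b and Coro1c. All of these overlapped.

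**Figure D2:**
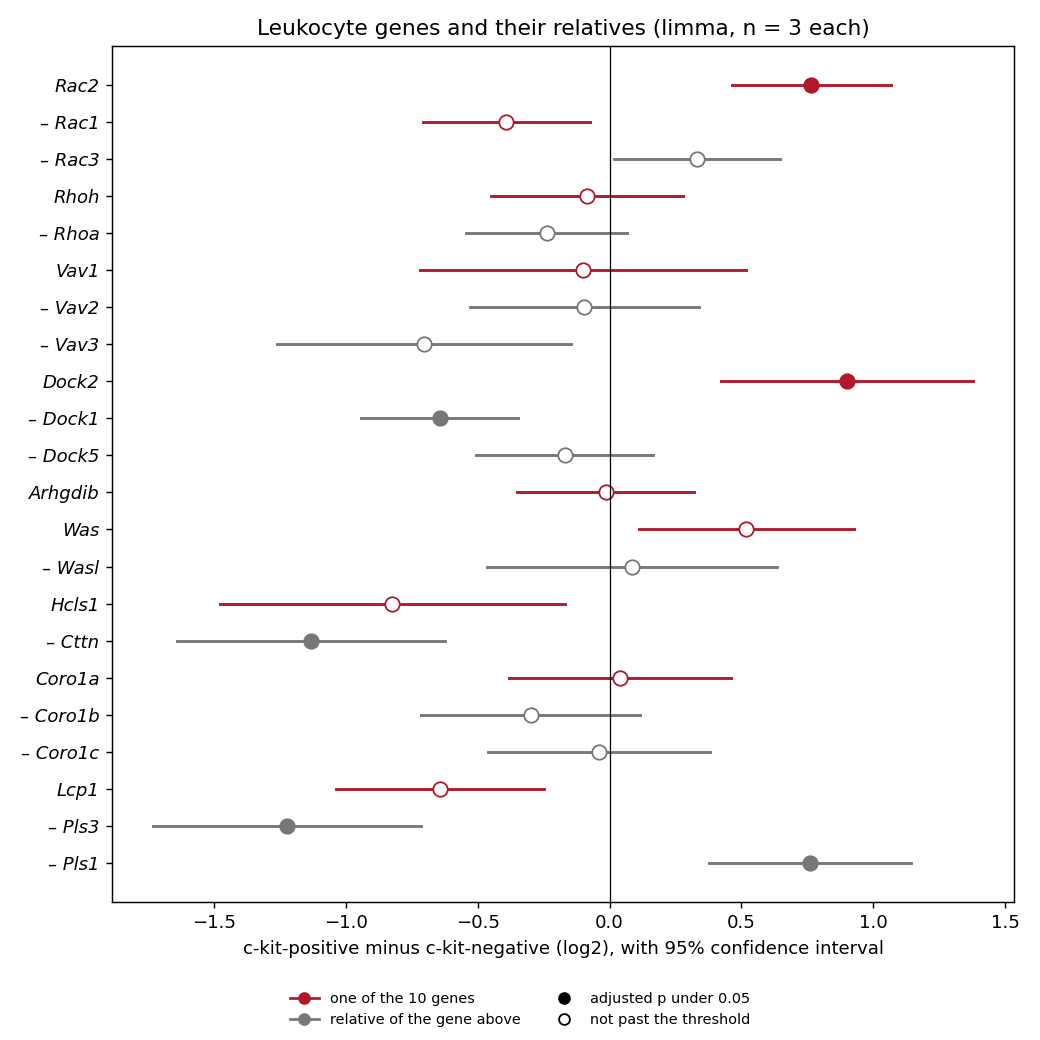
Difference of each gene (horizontal axis, c-kit-positive minus c-kit-negative, log2, with the 95% confidence interval from limma), with its relatives after a dash under it. Filled points passed an adjusted p under 0.05; Rac2 and Dock2 lie to the right of their relatives, and Rac1 is one of the 10 genes and also the relative of Rac2.

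The c-kit-negative replicates were not alike in these genes. In 7 of 10 the highest c-kit-negative value was that of replicate 1, against 30.1% of all genes: Rac2, Vav1, Dock2, Coro1a, Arhgdib, Lcp1 and Hcls1. Replicate 1 lay above its group mean by 0.56 in Vav1, 0.39 in Coro1a, 0.35 in Hcls1, 0.34 in Lcp1, 0.22 in Arhgdib, 0.17 in Dock2 and 0.05 in Rac2. Rac1, Rhoh and Was were instead highest in replicate 2. In the wider pathway lists, described below, replicate 1 was the highest c-kit-negative array for 61 of 135 genes. It was so for 8 of 12 genes that act before Vav and Rac and for 15 of 34 actin-binding genes. The trait was thus not particular to the 10. On the c-kit-positive arrays 3 of the 10 genes were highest in replicate 1, 5 in replicate 2 and 2 in replicate 3.

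Ptprc, which encodes the CD45 that the sort selected against, had the same shape. It stood at 8.37, 8.60 and 8.59 in c-kit-positive cells and at 9.40, 8.66 and 8.21 in c-kit-negative cells. All of these lay far above the array medians, although the sort selected against the surface antigen, and the reason was not tested. The difference of -0.24 did not pass (adjusted p = 0.689, limma). Macrophage markers had the same shape, and 16 of 18 were highest in c-kit-negative replicate 1. The mean of the list was 5.91 to 6.03 on c-kit-positive arrays and 7.15, 6.42 and 6.21 on c-kit-negative replicates 1, 2 and 3. Of those 18 markers 3 fell (Csf1r, Ctss and Tyrobp) and 0 rose in limma, with 9 lower and 3 higher at an unadjusted p under 0.05. The RMA scale has no zero, so no marker can be called absent. Without c-kit-negative replicate 1 the difference of Coro1a was 0.24, that of Arhgdib 0.09, that of Vav1 0.18 and that of Lcp1 -0.47, while those of Rac2 and Dock2 were 0.79 and 0.99. Dock2 did not pass without that array (adjusted p = 0.0683, limma), and the mean of the macrophage list was still lower in c-kit-positive cells, by a difference of -0.36. The part of macrophage RNA in the levels of the 10 genes was not tested.

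**Figure D3:**
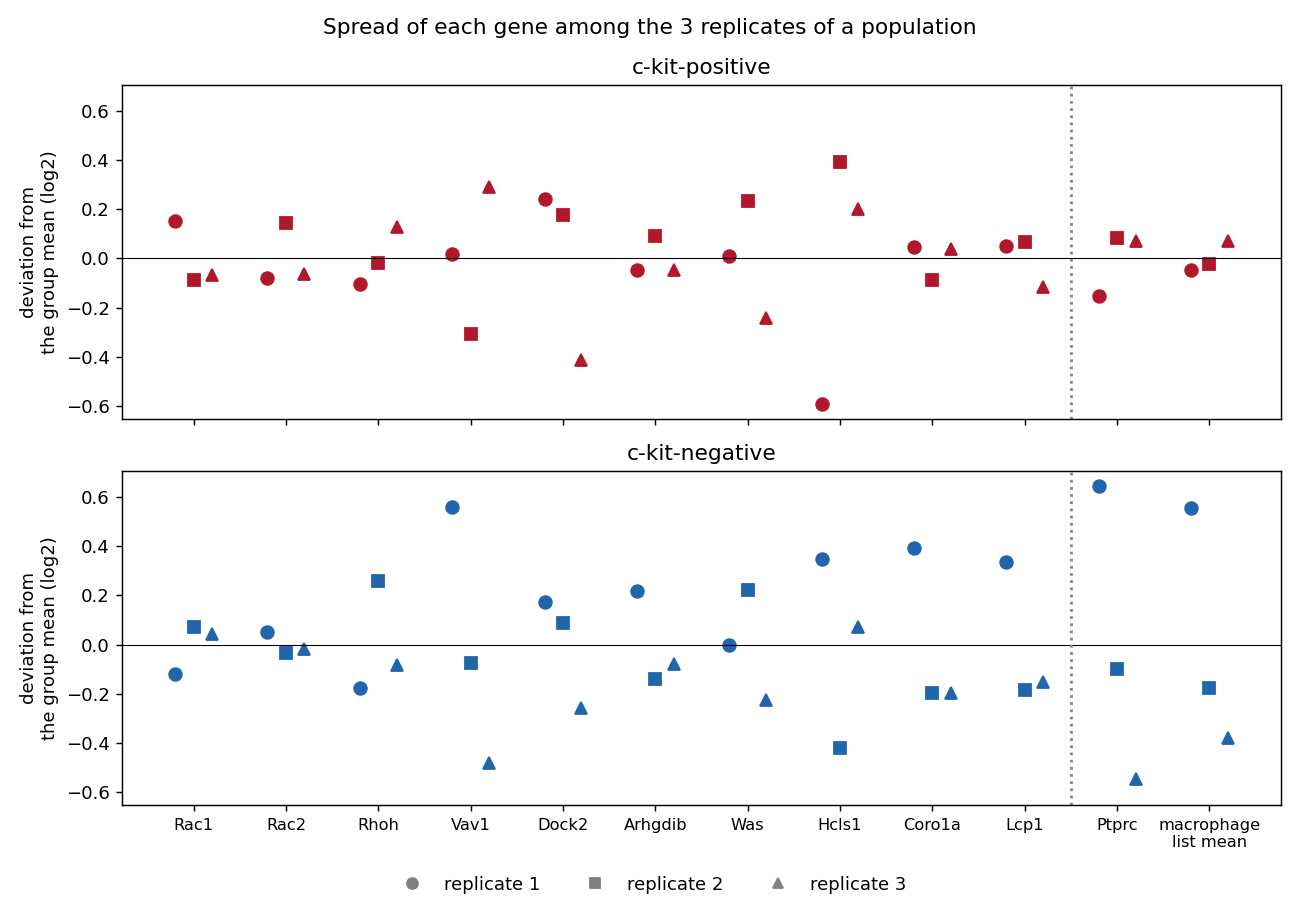
Deviation of each replicate from the mean of its population (vertical axis, log2) for the 10 genes, Ptprc and the mean of 18 macrophage markers, with c-kit-positive arrays above and c-kit-negative arrays below. C-kit-negative replicate 1 (circles) is the highest of its population in 7 of the 10 genes, in Ptprc and in the macrophage list, by 0.56 for Vav1.

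Genes with the most similar pattern over the 6 arrays were looked up for the 4 members that spanned at least 1 log2 unit, among 3920 other genes that did so, by Pearson correlation. With so few arrays, shared by all genes, these are descriptions only. Nearest to Vav1 were Mrc1 (r = 0.94), the mannose receptor of macrophages, Abcg3 (0.94) and Zc3h12c (0.92). Mrc1 and Abcg3 lay below the array medians on every array, so neither is called expressed or absent. Mrc1 had 4.01, 3.62 and 4.06 in c-kit-positive cells, against 4.91, 3.92 and 3.69 in c-kit-negative cells. Its peak in c-kit-negative replicate 1, where Vav1 was highest too, comes with the choice by correlation and is no separate observation. Nearest to Lcp1 were Dnajc3 (r = 0.99), Ly86 (0.99), the MD-1 protein of B cells and macrophages, and Tgfbr2 (0.99), a TGF-beta receptor. Nearest to Dock2 were Kcnk5 (r = 0.99), a potassium channel, Gna14 (0.99), a G protein subunit, and Rexo5 (0.98). Nearest to Hcls1 were Pik3c2a (r = 0.98), a lipid kinase, Golim4 (0.98) and Spred1 (0.98), an inhibitor of Ras signalling.

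The wider pathway was followed through 8 lists of 149 genes, of which 135 were measured; the counts here cover all 8, and 7 of the lists are described in turn. In c-kit-positive cells 22 fell (16.3%) and 5 rose (3.70%), against 4.70% and 2.71% of all genes, and the median difference was -0.21, beside 0.07 for all genes. On the same arrays all 16 pan-endothelial markers fell, with a list mean that dropped by 2.62 on the log2 scale, and 8 of 12 mesenchymal markers fell, with a list mean that dropped by 1.47; their part in the falls was not tested. Of the 27 calls, 13 held without each array in turn and 14 were lost at least once. The falls numbered 12 without c-kit-negative replicate 1 and 14 without replicate 3. The rises numbered 1 when c-kit-positive replicate 1 was left out, and the same for c-kit-negative replicates 1 and 2, and 3 for each of the other arrays.

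Of 23 other exchange factors and their partners 6 fell and 1 rose (median -0.22). Prex2, a Rac exchange factor, averaged 5.19 ± 0.18 in c-kit-positive cells, against 8.16 ± 0.22 in c-kit-negative cells (mean ± SD, n = 3 each), and was 7.82-fold lower (adjusted p = 3.99e-05, limma). Dock4 was 5.40-fold lower, Trio, with 2 exchange domains for different GTPases, 2.46-fold and Dock9, which acts on Cdc42, 1.85-fold lower. Def6, an exchange factor of lymphocytes, was the one that rose, at 6.39, 6.44 and 6.48 in c-kit-positive cells, against 5.50, 5.50 and 5.39 in c-kit-negative cells. The gap was wider than the range within either population (1.96-fold higher, adjusted p = 0.00262, limma), and the call held without each array in turn. Elmo1, a partner protein of Dock2 and Dock1, differed by 0.12 (adjusted p = 0.791, limma), and it is named with its values known.

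Of 16 measured GTPase-activating proteins 1 fell, Srgap1, which turns off Cdc42 downstream of Slit and Robo (2.90-fold lower, adjusted p = 0.000883, limma), and 0 rose. At an unadjusted p under 0.05 the counts were 6 lower and 1 higher. The GDI genes listed with them, Arhgdia and Arhgdig, were not measured. Of 22 WASP, WAVE and Arp2/3 genes, Cttn fell and Wasf3, a WAVE protein, rose by 2.20-fold (adjusted p = 0.0286, limma). The call for Wasf3 was lost without c-kit-positive replicates 1 or 3 or c-kit-negative replicates 1 or 2. Nckap1l, the WAVE complex subunit of blood cells, was at 7.91, 8.33 and 8.72 in c-kit-positive cells, against 8.41, 8.44 and 7.55 in c-kit-negative cells, and was named after its values were seen. Its populations overlapped.

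Of 34 actin-binding genes 6 fell and 2 rose (median -0.33). Flna, the filamin that crosslinks actin, averaged 7.32 ± 0.27 in c-kit-positive cells, against 9.04 ± 0.07 in c-kit-negative cells (mean ± SD, n = 3 each), a 3.30-fold fall, and Msn, the moesin that ties actin to the membrane, was 2.20-fold lower. Pls3 fell as given above. Myh9, the non-muscle myosin heavy chain, was 1.62-fold lower on the probe set used but 0.38 higher on the log2 scale as the mean of its probe sets, so its direction was not settled. Pls1 rose, and so did Diaph1, a formin that builds straight filaments (1.61-fold), whose call was kept only without c-kit-positive replicate 3.

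Of 4 measured parts of the phagocyte NADPH oxidase, which Rac2 activates in neutrophils and macrophages, 2 fell and 0 rose in limma, with 3 lower and 0 higher at an unadjusted p under 0.05. Cybb, its catalytic subunit, had 5.61, 4.71 and 5.01 in c-kit-positive cells, against 8.57, 8.74 and 8.26 in c-kit-negative cells, and was 10.7-fold lower (adjusted p = 0.000105, limma). All c-kit-negative arrays lay far above the others, and replicate 1 was not the highest. In the other measured parts it was, that is, in 3 of the 4. Ncf1 was 1.52-fold lower (adjusted p = 0.0472, limma), a call lost with any single array left out. Of 8 measured effectors of Rac and Cdc42, 0 passed in limma and 1 had an unadjusted p under 0.05, Pak2, a kinase that Rac activates, which averaged 8.88 ± 0.26 in c-kit-positive cells, against 9.41 ± 0.14 in c-kit-negative cells (mean ± SD, n = 3 each). Of 12 kinases, adaptors and receptors that act before Vav and Rac in leukocytes 1 fell, Fyn, a Src family kinase also made in many other tissues (1.85-fold lower), and 0 rose, with 1 each way at an unadjusted p under 0.05. The call for Fyn was kept only without c-kit-positive replicate 2.

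**Figure D4:**
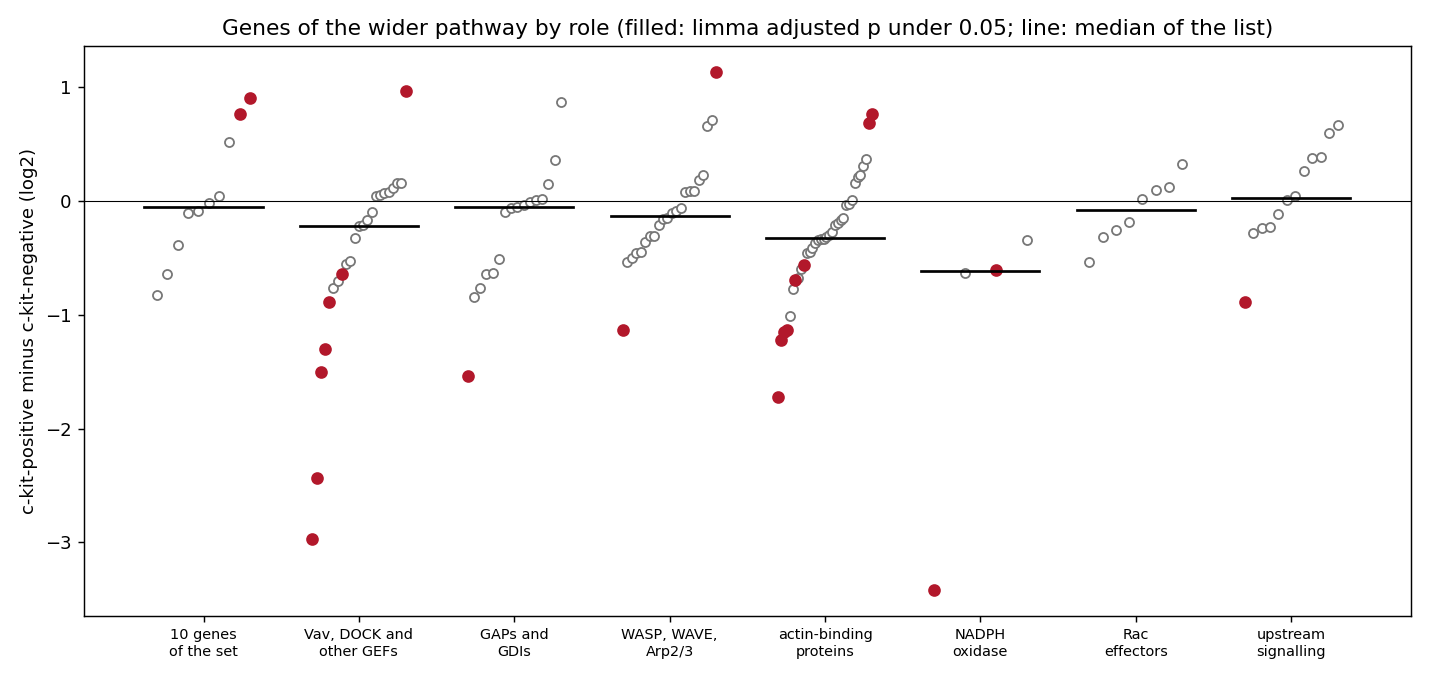
Difference of every measured gene of the 10 and of 7 wider lists (vertical axis, c-kit-positive minus c-kit-negative, log2), ordered by size within each list. Filled points passed an adjusted p under 0.05 in limma and lines are list medians; Cybb, of the NADPH oxidase list, lies lowest, and the filled points of the exchange factor list lie below 0 except Def6.

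Markers of other cell types moved on the same arrays as Rac2 and Dock2. Of 16 haematopoietic progenitor markers 7 rose and 1 fell, with a list mean of 7.31 to 7.43 on c-kit-positive and 6.79 to 6.93 on c-kit-negative arrays. The 14 germ cell markers other than Kit averaged 7.98 to 8.13 on c-kit-positive and 6.64 to 6.81 on c-kit-negative arrays, and 12 of them rose. Of 12 granulocyte and mast cell markers 1 rose and 2 fell, with 3 higher and 2 lower at an unadjusted p under 0.05. Of 11 lymphoid markers 1 rose and 2 fell, with 3 higher and 3 lower at that unadjusted threshold. Of 9 platelet markers 0 rose in limma (0 also at an unadjusted p under 0.05) and 3 fell. Of 11 erythroid markers 3 rose and 3 fell. The part of these cells in the rises of Rac2 and Dock2 was not tested.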

How the data were processed

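Total RNA of 6 sorted samples was measured, 1 array each. Per the labels' protocols, 5 ng of RNA was amplified with a whole-transcript kit before labelling, which can distort ratios, and array background compresses fold changes of dim genes. The deposited values are log2 levels that the authors made with RMA, per the submitters' processing notes; the sources used here give neither its version nor its settings. The number of arrays limits the precision.

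Of 34760 probe sets, 21640 had 1 gene symbol, 1321 several and 11799 none; 21553 matched the RefSeq gene table by Entrez identifier. For genes with several probe sets the one with the highest mean was used. All 19937 genes were fitted with limma 3.58.1 in R 4.3.3 (lmFit, eBayes, two-sided, no block). P-values were adjusted by Benjamini-Hochberg over all 19937 genes. On simulated arrays of these 19937 genes for this comparison, the test recovered 2% of changes of 0.5, 64% of 1, 94% of 2 and 100% of 3 (log2). Only 50 genes were changed by each size there, and 138 genes were called, against 1477 in the data. The adjusted threshold was thus stricter in the simulation, and these shares cannot be carried over to the data as they stand. Exact permutation tests used scipy 1.17.1.

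The members and lists were chosen with earlier results of these data known. Named genes are the 10, their relatives, the sort antigens, up to 4 called genes of smallest p a list and direction, up to 3 of smallest p a marker list, and the 3 nearest in pattern; gene models known only by number were left out. Genes without a single-gene probe set, Arhgdia among them, were not analysed here. Probe sequences were not used, so cross-hybridisation between the closely related Rac genes was not tested. The results of 1 of the 8 wider gene lists are not reported here.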

Additional observations from a re-analysis of the deposited data

How the results depend on the processing

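The results were recomputed without each array in turn, at a threshold of 0.01, with the replicate number as a block, with array weights, after quantile normalization or median centring, with a robust intensity trend, without the dimmest 30 percent of genes, and on every probe set or on probe set means. The rise of Rac2 kept its call at 0.05 under all of them, and that of Dock2 under all but 5 of the 6 left-out arrays; at 0.01, 0 of the 10 genes were called higher, and of all genes 131 higher and 499 lower. With a trend and robust prior 1 gene of the 10 (Lcp1) was lower. Without 1 array the members called higher numbered 1 to 2, all genes called higher 276 to 369 and lower 670 to 745, wider pathway genes 1 to 3 higher and 12 to 18 lower; at 0.01 those were 1 and 9. The labels do not say whether same-numbered arrays of the populations came from the same sort. Correlations of their deviations were 0.0007, 0.02 and 0.06, beside -0.057 to 0.0359 for arrays of different numbers, and so few arrays cannot decide it. With the number as a block 476 genes were higher and 879 lower, against 540 and 937. Of the wider pathway genes 2 were then higher, not 5. Some uncalled differences changed sign: Arhgdib was 0.0088 with median centring and ran from -0.0849 to 0.0947 without 1 array, Rhoh from -0.17 to 0.0448, Vav1 from -0.34 to 0.18, Coro1a from -0.0573 to 0.24, Vav2 from -0.30 to 0.0349, Wasl from -0.0744 to 0.36, Ptprc from -0.51 to 0.0867 and Coro1c from -0.17 to 0.0908 (0.0074 with array weights). So did the shifts of Vav1 against Vav2 (-0.28 to 0.31), Coro1a against Coro1c (-0.13 to 0.41) and Hcls1 against Cttn (-0.0715 to 0.86). Myh9 was 0.38 as the mean of probe sets. The cause of these changes was not tested.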
